A study of Homo sapiens with 3 samples.

Results

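MALAT1 and NEAT1 are long non-coding RNAs that stay in the nucleus, and TALAM1 is the antisense RNA of MALAT1. Peaks of protein-bound RNA in these 3 genes, of 59716 placed on chromosomes in the RefSeq table of GRCh38, were examined in HCT116, an established line of human colorectal carcinoma cells. The genes were chosen by their summit numbers in the lists below, which are therefore given as a description. Members were all peaks whose summit, the position of highest signal within a peak, lay within the RefSeq bounds of the 3 genes. These were 5 of 154000 peaks in cells with RPL22-HaloTag and 60 of 254413 peaks in cells with RPL22L1-HaloTag. RPL22 belongs to the large subunit of the ribosome, and RPL22L1 is a paralog of it. Both were carried as fusions to HaloTag, an enzyme tag that binds its ligand covalently. RNA was recovered by GoldCLIP, a method that crosslinks RNA to protein and has no gel step. The labels give no promoter, clone or expression level for the fusions, and all cells were grown in the same medium. Each group was 1 library, so no test between groups and no SD was possible. The library of cells with HaloTag only was not analysed here, so no background from it stands beside any value.

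The peak lists held whole-number scores from the authors' caller, which rank peaks within a list and were not set against each other between lists. Lowest scores were 13 in both lists and median scores were 33 for RPL22 and 124 for RPL22L1. How many reads each library had is unknown. No strand was given, so a peak in the stretch shared by MALAT1 and TALAM1 cannot be given to either RNA. The level of each RNA in the cells was not measured here.

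MALAT1 is one of the most abundant nuclear transcripts and gathers at nuclear speckles, bodies rich in splicing factors. Its end is formed by RNase P, which cuts off a small tRNA-like RNA, MASCRNA, and leaves a triple helix that shields the long RNA from decay. NEAT1 is the scaffold of paraspeckles, bodies that hold RNA-binding proteins such as SFPQ and NONO. It is made as a short polyadenylated form and as a long form that spans the whole gene, and only the long form builds paraspeckles. RPL22 is known to bind RNA stem-loops outside the ribosome as well as 28S rRNA.

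The RefSeq promoter table of GRCh38.p14 gave 2 starts for MALAT1, both on the plus strand. Both windows are shown because every summit in the gene lay beyond the second start. Lower case marks the 250 bases before a start and capitals the first 50 bases after it. The windows lie at chr11:65497488-65497787 and chr11:65498795-65499094.
MALAT1 start 1: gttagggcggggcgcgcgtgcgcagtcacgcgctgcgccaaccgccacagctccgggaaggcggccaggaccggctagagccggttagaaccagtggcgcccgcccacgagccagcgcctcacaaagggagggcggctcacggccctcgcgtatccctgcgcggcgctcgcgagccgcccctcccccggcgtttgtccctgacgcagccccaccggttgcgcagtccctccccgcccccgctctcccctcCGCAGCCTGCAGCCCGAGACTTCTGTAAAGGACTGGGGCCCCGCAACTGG
MALAT1 start 2: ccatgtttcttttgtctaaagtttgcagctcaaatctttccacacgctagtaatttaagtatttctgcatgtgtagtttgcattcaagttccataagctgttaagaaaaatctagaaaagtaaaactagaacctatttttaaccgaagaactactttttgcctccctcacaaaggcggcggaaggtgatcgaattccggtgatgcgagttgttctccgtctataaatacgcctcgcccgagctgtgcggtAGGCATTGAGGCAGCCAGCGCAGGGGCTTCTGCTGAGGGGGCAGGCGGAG
The second start lies at base 1308 of the gene, counted from the lower coordinate. GC made up 73.7% of the first window and 46% of the second, with 37 and 14 CG pairs. No peak of either list overlapped either window. The 1307 bases from the first start up to the second held 0 summits in both lists, while the bases beyond the second start held 2 RPL22 and 23 RPL22L1 summits. The first RPL22L1 summit came 270 bases after the second start.

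MALAT1 (chromosome 11, 65497738 to 65506516, 8779 bases) held 2 peaks in the RPL22 list. They lay at chr11:65504685-65504718 and chr11:65504983-65505019, with scores of 11799 and 2984 and widths of 34 and 37 bases. Their ranks were 148 and 334, within the top 0.0961% and 0.217% of that list. Both RPL22 peaks fell in the last 50% of the gene, 290 bases apart, with summits at bases 6959 and 7249.

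The RPL22L1 list held 23 peaks in MALAT1, with scores from 992 to 90689 and a median of 9830. Ranks ran from 62 to 2179, so that all 23 were among the top 1% of that list. Of these peaks 11 scored 10000 or more, out of 238 such peaks in the whole list. The highest, at chr11:65504648-65504737, had its summit at base 6959. It was followed by a peak with a score of 65847 at base 5389 (rank 77) and one with 53798 at base 8296 (rank 89). Peaks with scores of 37619 and 33578 had their summits at bases 6627 and 4634. High and low peaks were mixed along the gene, and the lowest, with a score of 992 at base 5059, lay between peaks with scores of 13861 and 2473.

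RPL22L1 peaks were spread over most of MALAT1. Of 10 equal parts of its length, the first held 0 summits and the others held between 1 and 4. The distance between neighbouring summits was 72 to 1047 bases with a median of 231. The longest distance, 1047 bases, separated base 7249 from the last summit at base 8296, and the 1577 bases before the first summit were longer still. Scores had a median of 5952 over the 10 peaks in the first 50% of the gene and 15902 over the 13 peaks in the rest. Peaks covered 1731 bases or 19.7% of the gene in the RPL22L1 list and 71 bases or 0.809% in the RPL22 list.

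MALAT1 peaks of the RPL22L1 list were also wide. Their widths were 30 to 159 bases with a median of 67, against a median of 30 over the whole list and 47 over the RPL22L1 peaks with a score of 1000 or more. Of the 23, 5 spanned 100 bases or more, or 21.7%. The same held for 1.35% of all RPL22L1 peaks and for 13.2% of the 2151 RPL22L1 peaks that scored 1000 or more. Those 2151 had a median score of 1445, against 9830 in MALAT1, so the widths were not compared at equal height. No MALAT1 peak in either list was flat, the name used here for a width of 30 bases with a central summit, a shape that made up 77.9% of the RPL22L1 list and 64.9% of the RPL22 list. Among peaks with a score of 1000 or more it was rare in general, with 8.55% and 4.26%.

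**Figure D1:**
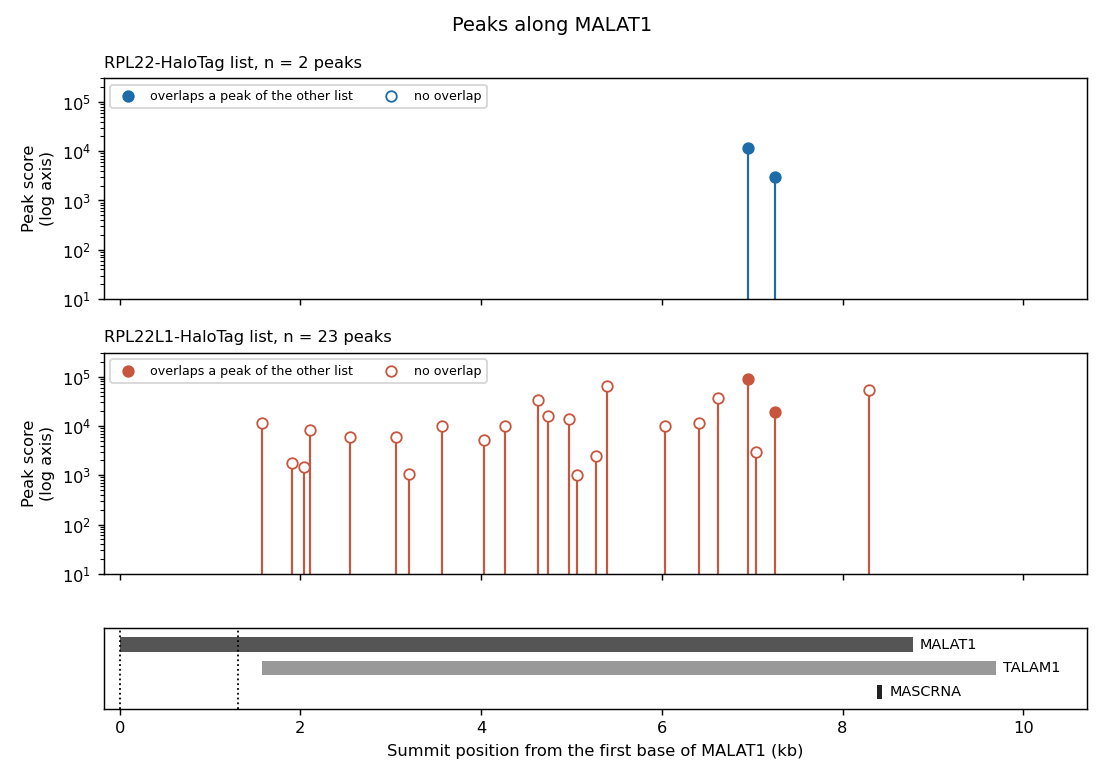
Peaks along MALAT1 in the RPL22-HaloTag list (top) and the RPL22L1-HaloTag list (middle), by summit position from the first base of the gene in kb and by score on a log axis. Filled points overlap a peak of the other list, open points do not, the lower bars show MALAT1, TALAM1 and MASCRNA, and dotted lines mark the 2 starts. The 2 RPL22 peaks stand at bases 6959 and 7249, where RPL22L1 peaks also stand, and the other 21 RPL22L1 peaks have no RPL22 partner.

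Near the end of MALAT1 stood a single RPL22L1 peak. MASCRNA, the tRNA-like RNA of 58 bases at chr11:65506117-65506174, held 0 summits in both lists. The RPL22L1 peak at chr11:65506012-65506062, with its score of 53798, ended 54 bases before MASCRNA. In the RPL22 list the nearest peak was 1097 bases away.

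TALAM1 (chromosome 11, 65499312 to 65507432, 8121 bases) holds the same summits as MALAT1, namely 2 of RPL22 and 23 of RPL22L1. All lay in the 7205 bases that both genes share. The 1574 bases of MALAT1 before TALAM1 and the 916 bases of TALAM1 beyond MALAT1 held 0 summits in both lists. The first shared RPL22L1 summit was 3 bases inside the bound of TALAM1, within a peak at chr11:65499244-65499329 that crosses it.

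NEAT1 (chromosome 11, 65422798 to 65445540, 22743 bases) held 3 peaks in the RPL22 list, all in its last part. The highest, at chr11:65443147-65443209, had a score of 5077, rank 261, and its summit at base 20375. A peak with a score of 107 (rank 18114) had its summit 76 bases before it. The third, at chr11:65445492-65445540, had a score of 133 (rank 14404) and ended on the last base of the gene. The 20298 bases before them held 0 RPL22 summits.

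In the RPL22L1 list NEAT1 held 37 peaks, with scores from 16 to 4830 and a median of 160. Their ranks ran from 376 to 251323, so that 10 were among the top 5% of the list and 16 in its lower 50%. The highest lay at chr11:65423618-65423647 with its summit at base 846. The next had a score of 1964 at base 3703 (chr11:65426415-65426514), and the third a score of 1101 at base 22722 (chr11:65445491-65445546), 21 bases from the end of the gene. The peaks of NEAT1 thus ranged over nearly the whole list, whereas those of MALAT1 all lay near its top.

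Summits of NEAT1 came in a group near the start and a long run behind it. Bases 846 to 3703 held 6 RPL22L1 summits with a median score of 688.5, of which 4 were among the top 5% of the list. No summit lay in the next 3316 bases, the longest gap in the gene. Bases 7019 to 22722 held 31 summits with a median score of 142, of which 6 were among the top 5%. The median distance between neighbouring summits over the whole gene was 541.5 bases. Where the short form of NEAT1 ends was not used here.

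Scores of NEAT1 were also summarised by its parts. The median RPL22L1 score was 321.5 over 16 peaks in the first 50% of NEAT1 and 106 over 21 peaks in the rest, which includes the third-highest peak near its end. All 6 flat peaks of NEAT1 lay in the later part, and the other 31 of 37, or 83.8%, were not flat, against 22.1% of the whole list. Widths were 30 to 145 bases with a median of 31. Of the 37, 17 had the lowest width of 30 bases, so some that were not flat differed only in an off-centre summit. Peaks covered 7.20% of the gene, against 0.638% in the RPL22 list. MIR612, a microRNA gene at chr11:65444458-65444557 inside NEAT1, held 0 summits in both lists. A low RPL22L1 peak, with a score of 31, ended 11 bases before it.

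**Figure D2:**
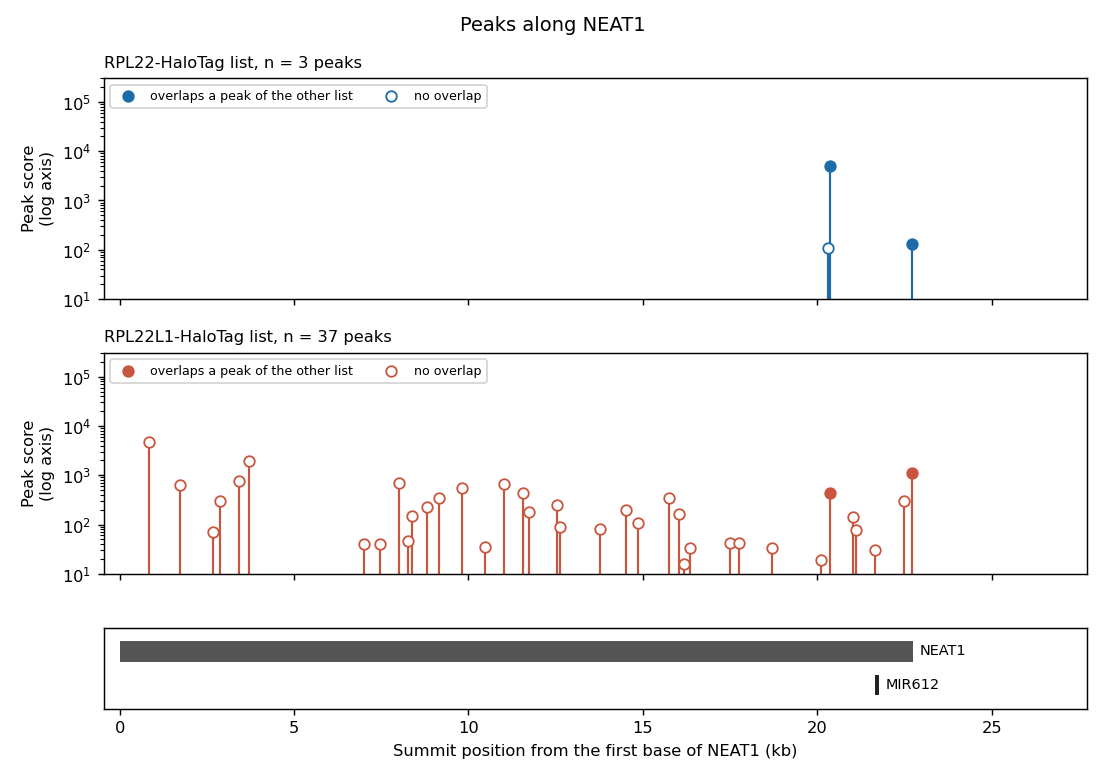
Peaks along NEAT1 in the RPL22-HaloTag list (top) and the RPL22L1-HaloTag list (middle), by summit position from the first base of the gene in kb and by score on a log axis. Filled points overlap a peak of the other list, open points do not, and the lower bars show NEAT1 and MIR612. The 3 RPL22 peaks stand at bases 20299 to 22723, while the 37 RPL22L1 peaks run from base 846 to base 22722 with a gap after base 3703.

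Overlap of at least 1 base between the lists was next measured at these sites. Of the 5 RPL22 peaks in MALAT1 and NEAT1, 4 overlapped an RPL22L1 peak, and the background over all 154000 RPL22 peaks was 17.4%. Of the 60 RPL22L1 peaks, 4 overlapped an RPL22 peak, against 10.6% of all 254413. These genes were chosen by their summit numbers, and with 5 RPL22 peaks in them few of the 60 could overlap one. Genes chosen with many RPL22L1 summits also make an overlap of the 5 likely, so nothing is read from the 4 of 5. The 17.4% is moreover no like background. Of the 5, 2 in MALAT1 and 1 in NEAT1 scored 1000 or more, and 84.5% of the 704 RPL22 peaks of that height overlapped. None of the 5 was flat, against 64.9% of the whole RPL22 list. Summits of these 4 pairs were 0, 0, 1 and 6 bases apart. Of all 26786 RPL22 peaks with an overlap, 6.23% had a summit at the very base of an RPL22L1 summit and 35.4% had one within 6 bases. With a score of 1000 or more these shares were 38.7% and 82.9% of 595 peaks.

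Both MALAT1 pairs had their summits at the same base, 65504696 and 65504986. The RPL22 peaks lay whole within RPL22L1 peaks of 90 and 64 bases. The first pair joined the highest MALAT1 peak of either list, and the second joined the lower RPL22 peak to the RPL22L1 peak of order 6 among 23, with a score of 19163. In the RPL22L1 list 21 of 23 MALAT1 peaks had no RPL22 partner. The share with one was 8.70% (95% interval 1.07 to 28.0%, exact Clopper-Pearson, covering counting error only). That interval takes the 23 peaks as independent, which peaks of a single gene in a single library are not. With 2 RPL22 peaks in the gene this share was bound to be low, so it adds nothing to the counts that chose MALAT1. Among all RPL22L1 peaks with a score of 1000 or more, which 22 of the 23 reached, 57.9% overlapped an RPL22 peak. RPL22 peaks of that height overlapped in 84.5% of 704 cases, and the 3 in MALAT1 and NEAT1 all did.

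NEAT1 pairs were less alike in height within their lists. Its highest RPL22 peak (rank 261) met an RPL22L1 peak with a score of 433, of order 10 among 37 and rank 11770. At the end of the gene the RPL22 peak of rank 14404 met the RPL22L1 peak of rank 1771, with 49 shared bases. The RPL22 peak with a score of 107 had no partner, and 36 bases separated it from the next RPL22L1 peak. Neither of the 2 highest RPL22L1 peaks of NEAT1 overlapped an RPL22 peak. The share of RPL22L1 peaks with a partner was 5.41% (0.661 to 18.2%, again with the peaks taken as independent). It was likewise bound to be low, with 3 RPL22 peaks in the gene.

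**Figure D3:**
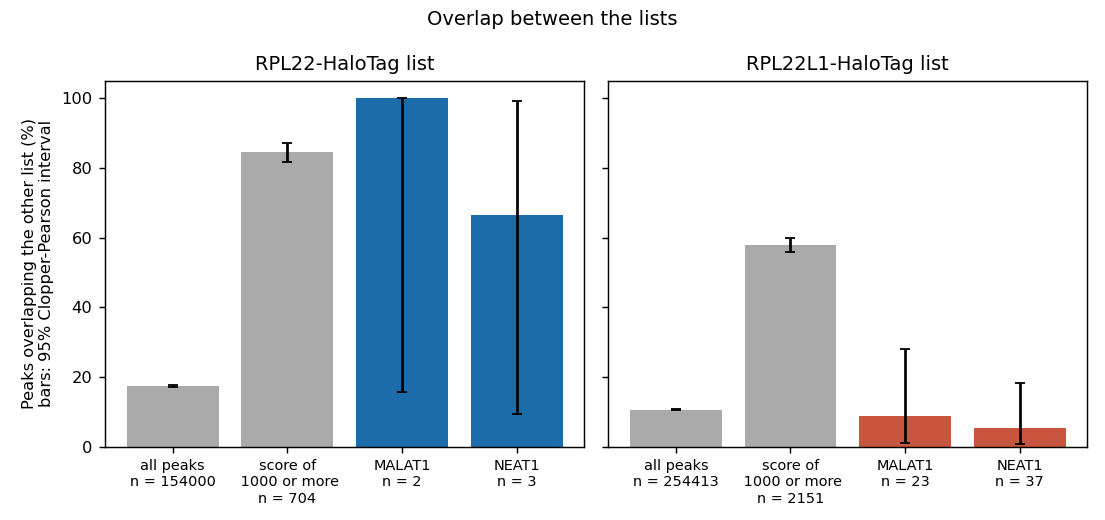
Share of peaks that overlap a peak of the other list by at least 1 base, in percent, for the RPL22-HaloTag list (left) and the RPL22L1-HaloTag list (right). Bars show all peaks, peaks with a score of 1000 or more, and peaks of MALAT1 and NEAT1. Whiskers are exact 95% Clopper-Pearson intervals, which take peaks as independent. RPL22L1 peaks of MALAT1 overlap in 8.70% of cases, against 57.9% of all RPL22L1 peaks with a score of 1000 or more. MALAT1 was chosen by its summit numbers, and its 2 RPL22 peaks keep this share low wherever they lie. Nothing is read from the left bars of MALAT1 and NEAT1 either, since both genes were chosen with many RPL22L1 summits.

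Summit number was compared per gene in lists of nearly equal size, where the 149971 RPL22L1 peaks scoring 99 or more were kept. MALAT1 and TALAM1 then held 2 RPL22 and 23 RPL22L1 summits and NEAT1 held 3 and 22. The log2 ratios of summit number plus 1, RPL22L1 over RPL22, were 3, 3 and 2.52. All 3 genes passed a log2 ratio of 1 towards RPL22L1, and so did 6.02% of the 8565 genes holding 10 or more summits over both lists, and 7.51% of 692 such lncRNA genes. In the other direction 9.5% of the 8565 were below -1. The median ratio over all genes was 0. These numbers chose the 3 genes, and nothing is read from the comparison.

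**Figure D4:**
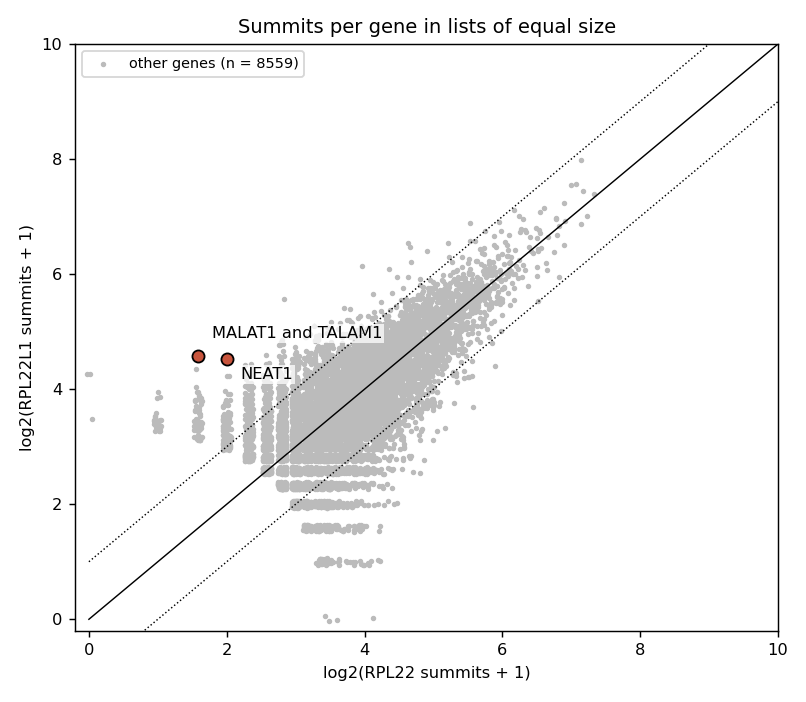
Summits per gene in lists of nearly equal size, as log2 of summit number plus 1, for the RPL22-HaloTag list (x axis) and the RPL22L1-HaloTag list (y axis). Grey points are other genes of at least 2000 bases, moved slightly at random to show ties, the solid line marks equal numbers and dotted lines a log2 ratio of 1 and -1. MALAT1 with TALAM1 (2 and 23 summits) and NEAT1 (3 and 22) lie above the upper dotted line.

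Summit density was ranked over genes within each list. MALAT1 held 2.62 RPL22L1 summits per 1000 bases, order 35 among 19850 genes of at least 2000 bases with a summit, whose median was 0.233. NEAT1 held 1.63, order 296. In the RPL22 list the densities were 0.228 and 0.132, orders 7551 and 11430 of 19169, around a median of 0.174. The bounds include introns, which most other genes hold. TALAM1, which shares every summit of MALAT1, was left out of these rankings. Among the other genes of that length MALAT1 held the most RPL22L1 peaks with a score of 1000 or more, 22, and NEAT1 held 3. Such peaks lay in 1453 of these genes, with a median of 1.

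Summits were also counted around both genes. Between NEAT1 and MALAT1 lie 52197 bases, with 7 RPL22 and 9 RPL22L1 summits, 0.134 and 0.172 per 1000 bases. The highest scores there were 72 and 307. The 25000 bases before NEAT1 held 13 and 4 summits, 0.52 and 0.16 per 1000 bases, and those after TALAM1 held 0 and 3. In the RPL22L1 list both genes were denser than the 3 stretches around them. In the RPL22 list the stretch before NEAT1 was denser than NEAT1 and MALAT1. Only 3 of its 13 RPL22 peaks were not flat, against 3 of 3 in NEAT1 and 2 of 2 in MALAT1. Part of this stretch lies within another gene, FRMD8. The highest RPL22 score in that stretch was 151, against 5077 in NEAT1. At the bounds of the genes, the last RPL22L1 summit inside NEAT1 had a score of 1101 and the next one outside, 9867 bases beyond, a score of 307. Before MALAT1 the nearest RPL22L1 summit outside lay 5318 bases away with a score of 31.

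**Figure D5:**
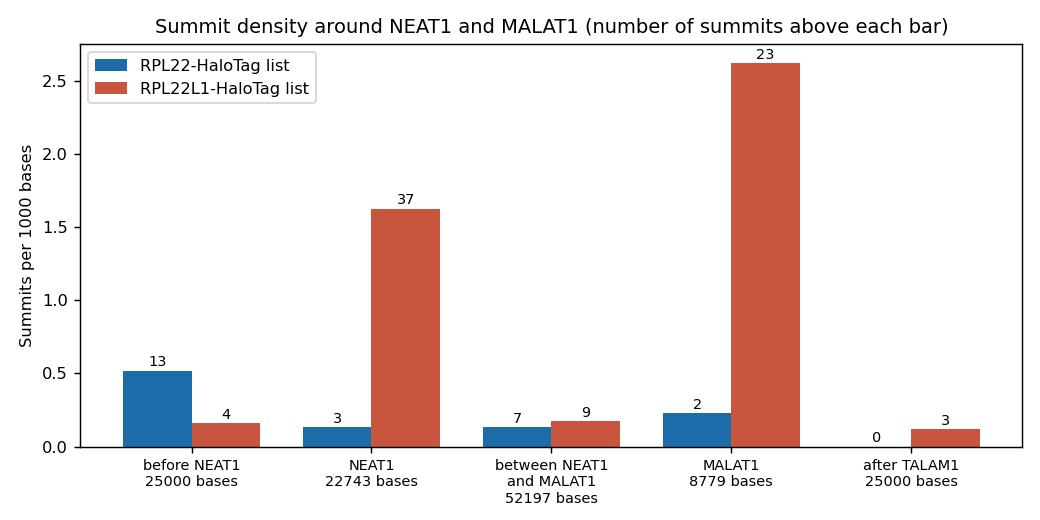
Summits per 1000 bases in NEAT1, MALAT1, the stretch between them and 25000 bases on each outer side, for the RPL22-HaloTag list and the RPL22L1-HaloTag list. Numbers above the bars are summit counts. RPL22L1 bars of NEAT1 (37 summits) and MALAT1 (23 summits) stand above those of the stretches around them, which hold 4, 9 and 3.

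Genes most like the members in both log2 ratio and RPL22L1 density were sought among 8559 genes, over the 2 libraries. Likeness was the sum of the absolute differences in both measures on the log2 scale. Nearest to MALAT1 were ZBED5 (0.776), BUB3 (0.888), a mitotic checkpoint protein, and RBM12B (0.970), which held 9, 13 and 10 RPL22L1 summits in lists of nearly equal size and 1 RPL22 summit each. In the whole RPL22L1 list they held 15, 26 and 25, while MALAT1 held 23 in both. Nearest to NEAT1 were HNRNPA3 (0.129), SRSF9 (0.255) and DDX5 (0.285), with 10, 10 and 11 RPL22L1 summits in lists of nearly equal size, 19, 15 and 12 in the whole list, and 1 RPL22 summit each. HNRNPA3 is an RNA-binding protein, SRSF9 a splicing regulator and DDX5 an RNA helicase. All 6 are protein-coding genes.

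Genes for proteins of the bodies that hold these RNAs were counted in the same way, in lists of nearly equal size. Of 16 paraspeckle protein genes 14 had at least 10 summits, and 4 of these were above a log2 ratio of 1 and 0 below -1, with a median of 0.62. Over all 8565 genes tested 6.02% were above 1 and 9.5% below -1, with a median of 0. With that background, 0 of 14 below -1 says little. Those above 1 included CPSF6 (1.74) and, named after their values were seen, HNRNPK (1.93) and HNRNPH3 (1.32). PSPC1, a core paraspeckle protein, held 34 RPL22 and 52 RPL22L1 summits, a log2 ratio of 0.60. SFPQ and NONO, which bind NEAT1, had ratios of 1 and 0.58.

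Nuclear speckle protein genes gave a like count. Of 16, 14 had at least 10 summits, with 5 above 1, 0 below -1 and a median of 0.81. They were BCLAF1 (1.25) and, again named after their values were seen, SRSF1 (1.87), SON (1.52), SRSF3 (1.49) and SRSF7 (1.17). SRRM1 held 23 and 22 summits, a ratio of -0.06. SRSF1 and SRSF3 are splicing regulators and SON is a scaffold of the speckle. These counts stand beside 6.02% of all genes tested above 1, 9.5% below -1 and a median of 0, so 0 of 14 below -1 again says little.

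Genes that act on the end and stability of MALAT1 were counted next. Of 13, 6 had at least 10 summits, 0 passed a log2 ratio of 1 in either direction, and the median was -0.20. Over all genes tested 6.02% were above 1 and 9.5% below -1, so 0 of 6 says little. ELAC2, the tRNase Z that trims MASCRNA, held 21 and 18 summits, and METTL16, a methyltransferase that binds the MALAT1 triple helix, held 15 and 17. Of 21 other long non-coding RNA genes 8 had at least 10 summits, with a median of 0.56. Of these 2 were above 1 and 1 below -1, beside 7.51% of all lncRNA genes tested above 1 and 9.5% of all genes below -1. FTX (1.29) and TUG1 (1.74), which the RefSeq table lists as protein-coding, were above 1 and KCNQ1OT1 (-1.46) below -1, while LINC-PINT held 47 and 90 summits, a ratio of 0.92.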

How the data were processed

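GoldCLIP peak lists of 2 of the 3 samples were used, 1 library each, grouped by the genotype in the labels. The submitters' processing notes name cutadapt 4.8, STAR 2.7.10a, UMI-tools 1.1.5, MACS3 3.0.0a6 and build hg38, with no role, control or threshold. Each deposited list had 10 columns and gave the authors' peak score and the offset of the summit. The unit of the score is not stated, and peak names carry the term qpois. The treatment of reads with several matches is not given in the sources used here.

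Summits were given to every RefSeq gene (GRCh38.p14) whose bounds held them. Equal size meant the higher-scoring RPL22L1 peaks, with all peaks tied at the last score left out. Likeness, for 3 genes each, and the 2 genes named per list followed fixed rules. Named list genes were those with the most RPL22L1 summits, and genes past the limit were added after their values were seen, apart from 1 that is not reported here. Members, lists and the score limit of 1000 were chosen with earlier results of these data known. Shares carry 95% intervals (exact Clopper-Pearson) for counting error only, and peaks of 1 gene in 1 library are not independent. Shares and overlaps were computed with Python 3.11.15, pandas 2.3.3, numpy 2.4.6 and scipy 1.17.1, and the code was tested on simulated data. Alternatives were a higher score limit, lists of equal or whole size, no flat peaks, merged peaks, other definitions of overlap and another pseudocount.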

Additional observations from a re-analysis of the deposited data

How the results depend on the processing

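Of 47 alternative values for summit numbers, log2 ratios and overlaps of MALAT1, NEAT1 and TALAM1, 44 stayed within 1.5-fold, 3 moved and 0 reversed. TALAM1 holds the same summits as MALAT1, so its values among the 44 repeat those of MALAT1 and add nothing. The 37 RPL22L1 summits of NEAT1 became 21 when peaks below the list's median score were left out and 22 in lists of nearly equal size, since both settings drop low peaks. The log2 ratio of NEAT1 was 3.25 with whole lists. Score limits and the removal of flat peaks could not touch the MALAT1 and TALAM1 peaks or the RPL22 peaks of NEAT1, which were not flat and scored above the limits, so their unchanged numbers say nothing about stability. Overlap of at least 50% of both peaks left 3 of 4 shared pairs in each list. The pair lost was that of the highest MALAT1 peaks, at base 6959, which shared 34 of the 90 bases of the RPL22L1 peak. No paired analysis was possible because each group was 1 library without a replicate number. The unknown read depth limits every comparison of peak number between the lists.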

Other observations

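Among lncRNA genes of at least 2000 bases, 3 held RPL22L1 summits at a density above that of MALAT1. They were LOC105374002 with 2.66 summits per 1000 bases, MID1IP1-AS1 also with 2.66 and NORAD with 2.62. In these genes 9, 7 and 14 RPL22L1 summits were counted, of which 5, 3 and 8 were not flat, against 23 of 23 in MALAT1. NORAD, an abundant cytoplasmic RNA bound by PUMILIO proteins, held 2 RPL22 summits, as many as MALAT1. Its RPL22L1 density of 2.62025 was all but level with the 2.61989 of MALAT1. In lists of nearly equal size NORAD kept 7 of its 14 RPL22L1 summits, while MALAT1 kept 23 of 23. None of the RPL22L1 peaks of NORAD scored 1000 or more, against 22 in MALAT1.

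After MALAT1, and leaving out TALAM1, which shares its 22 such peaks, the genes of at least 2000 bases with the most RPL22L1 peaks scoring 1000 or more were ITPRID2 with 9, and HNRNPH1, LOC128966623 and SLC38A2 with 8 each. HNRNPH1 encodes a splicing regulator and SLC38A2 an amino acid transporter. RPL22 peaks of that score numbered 0 in ITPRID2 and SLC38A2 and 2 in each of the other two. These genes were named after their values were seen.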
